A study of Mus musculus with 6 samples.

Results

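Cathepsins are proteases of the lysosome, and 10 of their genes were followed in brown adipose tissue with and without a deletion of seipin in brown adipocytes. They were chosen by symbol (Ctsa, Ctsb, Ctsc, Ctsd, Ctsf, Ctsh, Ctsk, Ctsl, Ctss and Ctsz) among the 12966 genes of the expression table, and all 10 were listed there with a value above 0 in every library. RNA sequencing profiled the brown fat of C57BL/6J males aged 10 weeks in 2 groups. BKO mice carried floxed Bscl2 (Bscl2f/f) together with Ucp1Cre (3 libraries), and Ctrl mice carried floxed Bscl2 without the Cre (3 libraries). Bscl2 encodes seipin, which acts in lipid droplet formation at the endoplasmic reticulum. The Ucp1 promoter drives the Cre in brown adipocytes, so by design macrophages, vessel cells and other cells of the tissue should keep their Bscl2. Bscl2 was not measured by cell type here. Since the Cre was present in BKO alone, its own effect cannot be told apart from that of the deletion. It is not stated whether each library came from a different mouse, and p-values then measure the spread between these libraries, which may be technical.

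Cathepsins are made as inactive precursors, carried to lysosomes mostly by mannose 6-phosphate receptors, and activated there by acid and by other proteases. Most are papain-like cysteine proteases, while Ctsd is an aspartic protease and Ctsa a serine carboxypeptidase. Ctsd, Ctsb and Ctsl are found in nearly all cells, Ctss mainly in antigen-presenting cells such as macrophages, and Ctsk is best known from osteoclasts. Cystatins and related proteins inhibit the cysteine cathepsins.

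Levels are given as FPKM, mapped fragments scaled for transcript length and for the size of the library, which allows genes to be compared per length. The deleted gene had 16.5, 16.9 and 18.9 FPKM of Bscl2 in BKO libraries, against 115.6, 104.1 and 106.5 FPKM in Ctrl libraries. It fell to 16.0% of its Ctrl level (limma with Benjamini-Hochberg adjusted p = 3.95e-05). The labelled tissue showed its markers, with all 12 brown adipocyte markers listed and none at 0. In the whole table FPKM summed to between 1119228 and 2808874, the highest sum being that of BKO-3. Without the mitochondrial tRNA genes and Ighj4, a short gene segment listed above 0 in BKO-3 alone, the sums lay between 561151 and 641756. They were 596092 to 641756 in BKO libraries and 561151 to 578595 in Ctrl libraries, so every BKO sum was above every Ctrl sum. How many reads lie behind each library is not known, so no counting error can be given.

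Cathepsin D and cathepsin B made up most of the family's transcripts in both genotypes. Ctsd, the main aspartic protease of lysosomes, averaged 446 ± 30.9 FPKM in BKO and 477 ± 23.0 FPKM in Ctrl (SD, n = 3 each). Ctsb, a cysteine protease that also trims peptides from their carboxyl end, averaged 225 ± 6.54 FPKM in BKO and 249 ± 7.53 FPKM in Ctrl. In both groups the order then ran from Ctsz to Ctsl, Ctsa, Ctsf and Ctss. At the low end of the order stood Ctsh, Ctsc and Ctsk, with Ctsk at 2.55 ± 0.287 FPKM in BKO and 1.58 ± 0.246 FPKM in Ctrl. Every neighbour in this order was separated from the next by the range of its libraries, except that Ctss, Ctsc and Ctsh overlapped in Ctrl. There they averaged 4.88, 4.47 and 4.40 FPKM, whereas in BKO Ctss stood above Ctsh and Ctsh above Ctsc in every library. Summed over the 10 genes, cathepsin FPKM were 1024, 1056 and 959 in BKO and 1016, 962 and 1000.1 in Ctrl. These sums overlapped, and their means differed by 20.05 FPKM (exact two-sided permutation p = 0.6, where 3 against 3 libraries cannot go below 0.1).

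**Figure D1:**
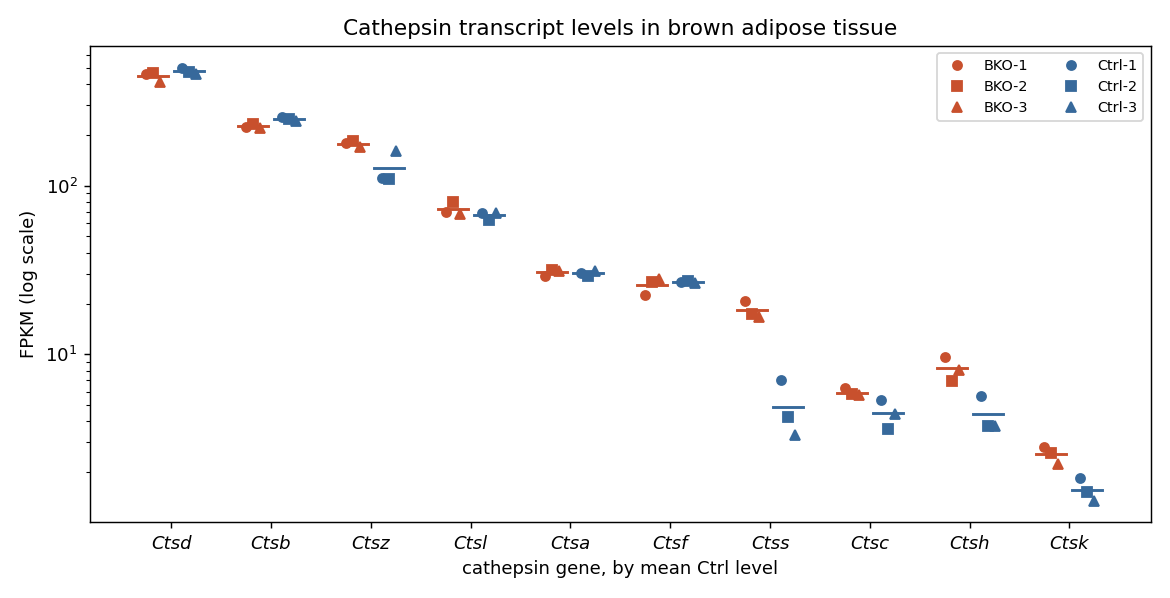
FPKM of the 10 cathepsin genes on a log scale, ordered by their mean in Ctrl, with BKO libraries (red) left of Ctrl libraries (blue). Symbols mark the library numbers and bars the group means. The 3 BKO libraries lie above the 3 Ctrl libraries for Ctss, Ctsc, Ctsh, Ctsk and Ctsz, and below them for Ctsb.

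Cathepsin S was the cathepsin that rose. It had 20.7, 17.3 and 16.7 FPKM in BKO libraries, against 7.08, 4.25 and 3.30 FPKM in Ctrl libraries. The lowest BKO library stood 2.35 times above the highest Ctrl library, so the groups were well apart, although the Ctrl libraries differed among themselves more, in relative terms, than the BKO libraries. Ctss cuts the invariant chain (Cd74) from MHC class II molecules and, unlike most cathepsins, stays active at neutral pH. Its mean was 3.74-fold higher in BKO, and the change was 1.76 on the log2(FPKM + 1) scale (SE 0.2198, 95% interval 1.24 to 2.27, limma with Benjamini-Hochberg adjusted p = 0.0439). Tests covered the 11397 genes averaging 1 FPKM or more over the 6 libraries, of which 0.158% were called higher and 0.00877% lower. Among the 10 cathepsins 1 was called higher and 0 lower. The call lay close to its threshold of 0.05. Leaving out BKO-1, BKO-2, BKO-3, Ctrl-2 or Ctrl-3 gave adjusted p = 0.189, 0.172, 0.0859, 0.222 and 0.0958 with log2 changes of 1.66, 1.79, 1.81, 1.70 and 1.56, while without Ctrl-1 the change was 2.01 (limma adjusted p = 0.00666).

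Cathepsins H, K, Z and C were also higher in every BKO library than in any Ctrl library, but none of them passed the test over all genes. Ctsh, an aminopeptidase of lysosomes and of lung surfactant processing, had 9.67, 6.97 and 8.09 FPKM in BKO libraries and 5.69, 3.74 and 3.78 FPKM in Ctrl libraries. The ratio of its means was 1.87, with a log2 difference of 0.78 (SE 0.166, limma adjusted p = 0.207). The Ctrl library nearest to the BKO range was Ctrl-1, which was also the highest Ctrl library for Ctss, Ctsk and Ctsc.

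Ctsk, a collagen-degrading protease, had 2.81, 2.59 and 2.24 FPKM in BKO libraries and 1.84, 1.53 and 1.35 FPKM in Ctrl libraries, a ratio of 1.62 at low levels (limma adjusted p = 0.248). Ctsc, the dipeptidyl peptidase that activates granule serine proteases, had 6.28, 5.79 and 5.70 FPKM in BKO libraries and 5.38, 3.62 and 4.41 FPKM in Ctrl libraries, a ratio of 1.32 (limma adjusted p = 0.416). For Ctsc the gap between the groups was narrow, with the lowest BKO library only 1.06 times the highest Ctrl library.

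Ctsz, a carboxypeptidase also called cathepsin X, had 180, 183 and 169 FPKM in BKO libraries and 111, 109 and 161 FPKM in Ctrl libraries. Its BKO libraries were alike, whereas Ctrl-3 stood close to them and apart from the other Ctrl libraries. The log2 difference was 0.50 (SE 0.149, limma adjusted p = 0.337), and 0.68 without Ctrl-3 (limma adjusted p = 0.0607). Ctsz was the member with the largest difference in share, 17.5% of the summed cathepsin FPKM in BKO and 12.8% in Ctrl.

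The remaining cathepsins differed by less, and in either direction. Ctsb had 225, 232 and 219 FPKM in BKO libraries and 257, 249 and 241 FPKM in Ctrl libraries, so that all BKO libraries were below all Ctrl libraries, with a log2 difference of -0.14 (95% interval -0.29 to 0.0068, limma adjusted p = 0.506). Ctsd had 458, 469 and 411 FPKM in BKO libraries and 503, 472 and 457 FPKM in Ctrl libraries, which overlapped (log2 difference -0.10, 95% interval -0.29 to 0.09). Ctsl, an endopeptidase of most cell types, had 70.3, 80.01 and 68.0 FPKM in BKO libraries and 69.2, 62.8 and 69.3 FPKM in Ctrl libraries (log2 difference 0.11, 95% interval -0.08 to 0.31). The groups overlapped for Ctsl as well.

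Ctsa, which protects lysosomal sialidase and beta-galactosidase from degradation, had 29.2, 31.7 and 31.1 FPKM in BKO libraries and 30.4, 29.0 and 31.1 FPKM in Ctrl libraries. Ctsf, a cysteine protease with a long propeptide, had 22.6, 26.7 and 28.1 FPKM in BKO libraries and 26.8, 27.3 and 26.6 FPKM in Ctrl libraries. Their 95% intervals on the log2 scale ran from -0.13 to 0.18 for Ctsa and from -0.28 to 0.14 for Ctsf. In all, 5 of the 10 cathepsins had BKO libraries wholly above Ctrl libraries and 1 had them wholly below, against 9.06% and 6.82% of all genes tested. At an unadjusted p below 0.05 the limma test gave 5 higher, which were again Ctss, Ctsh, Ctsk, Ctsz and Ctsc, and 0 lower, against 6.63% and 3.52% of all genes tested. The median log2 change was 0.23 over the 10 cathepsins and 0.01 over all genes tested. The genes were picked with earlier results of these data known, so these shares describe them and do not test the family.

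**Figure D2:**
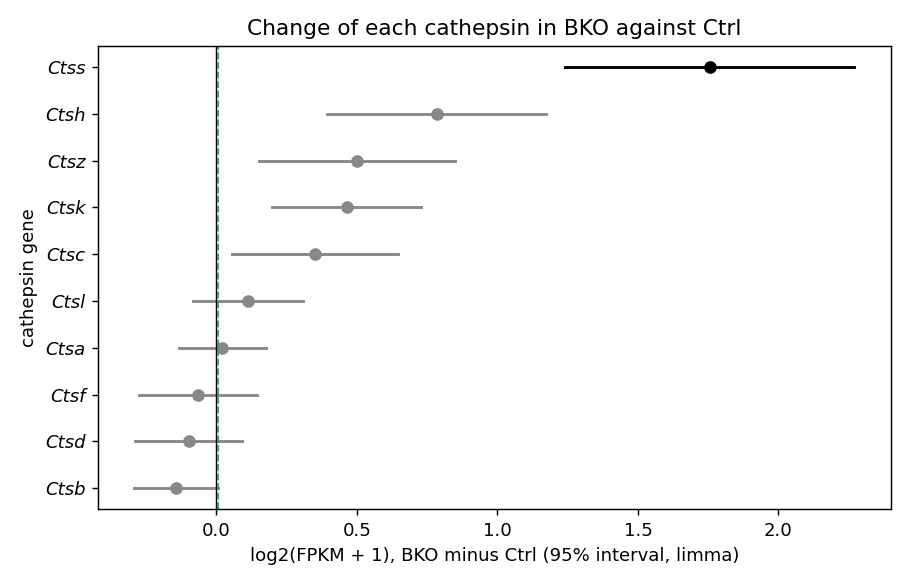
Change of each cathepsin, BKO minus Ctrl, on the log2(FPKM + 1) scale, with 95% intervals from limma over 3 libraries per group. Ctss (black) passed the adjusted test at 1.76, the members in grey did not, and the dashed green line marks the median of all genes tested at 0.01.

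Ratios between cathepsins within a library do not depend on how that library was scaled. Per unit of Ctsd, Ctss transcripts were 0.0453, 0.0369 and 0.0405 in BKO libraries and 0.0141, 0.00901 and 0.00722 in Ctrl libraries, a log2 difference of 2.07. Against Ctsh, the member nearest to it in change, the ratio was 2.14, 2.48 and 2.06 in BKO and 1.24, 1.14 and 0.874 in Ctrl, a log2 difference of 1.05. All 9 ratios of Ctss to another member were higher in every BKO library, with log2 differences between 1.05 for Ctsh and 2.11 for Ctsb. They share Ctss, the member with the largest change, so they largely restate that change and are not 9 separate results. For each ratio the exact two-sided permutation p and its value adjusted over the 9 ratios were 0.1, the smallest that this design can give, so none could pass 0.05. As a share of the summed cathepsin FPKM, Ctss took 1.80% ± 0.200 in BKO and 0.489% ± 0.188 in Ctrl (SD, n = 3 each). Ctsd and Ctsb together took 66.3% ± 0.478 in BKO and 73.2% ± 2.84 in Ctrl.

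Ctss and Ctsk are neighbours on mouse chromosome 3, and the RefSeq table of promoters (GRCm38.p6, which is not the authors' build) places their annotated starts 27576 bases apart in the same orientation. Although adjacent, they differed in level and in change, with Ctss 7.36, 6.67 and 7.42 times Ctsk in BKO libraries and 3.85, 2.77 and 2.44 times Ctsk in Ctrl libraries. The table held windows for 8 of the 10 genes (9 windows, none for Ctsb and Ctsh). The 250 bases before each start were searched on both strands for the core letters of PU.1 sites, GAGGAA, and for the E-box CACGTG, with its longer form TCACGTGA, which contains the E-box. PU.1 is a transcription factor of macrophages and other blood cells, and its gene, Spi1, was not among the listed genes. E-boxes of the longer form are bound by factors that regulate lysosomal genes, such as TFEB. The windows of Ctss, Ctsk and Ctsc are shown because they hold the PU.1 letters and belong to members whose BKO libraries were all above Ctrl. They contain no annotated exon of GENCODE vM21 and are written 5′ to 3′ with matches to GAGGAA or its reverse complement, TTCCTC, in capitals. Ctss lies at chr3:95526536-95526785 (+), Ctsk at chr3:95498960-95499209 (+) and Ctsc at chr7:88277835-88278084 (+).
Ctss: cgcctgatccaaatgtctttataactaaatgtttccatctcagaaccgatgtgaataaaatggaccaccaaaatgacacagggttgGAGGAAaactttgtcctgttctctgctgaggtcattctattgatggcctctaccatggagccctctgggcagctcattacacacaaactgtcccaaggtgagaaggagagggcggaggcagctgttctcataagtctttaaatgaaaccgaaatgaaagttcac
Ctsk: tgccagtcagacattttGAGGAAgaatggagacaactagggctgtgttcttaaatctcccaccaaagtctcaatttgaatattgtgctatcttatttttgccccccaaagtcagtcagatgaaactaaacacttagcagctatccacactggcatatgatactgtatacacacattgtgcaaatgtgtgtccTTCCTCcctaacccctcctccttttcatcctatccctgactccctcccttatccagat
Ctsc: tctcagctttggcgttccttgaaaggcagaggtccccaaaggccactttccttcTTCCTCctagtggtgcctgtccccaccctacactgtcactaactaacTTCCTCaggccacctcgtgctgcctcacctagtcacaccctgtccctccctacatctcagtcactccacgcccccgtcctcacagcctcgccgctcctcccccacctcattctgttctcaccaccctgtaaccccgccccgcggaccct

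Counted from the annotated start, the first base of GAGGAA or its reverse complement lay at -164 for Ctss, at -233 and -58 for Ctsk, and at -196 and -149 for Ctsc. It occurred in 3 of the 9 member windows and in 23.3% of all 32851 windows of the table. The E-box occurred in 4 of the 9 windows, those of Ctsd, Ctsf and Ctsl and 1 of the windows of Ctsa, and in 6.02% of all windows. Its longer form occurred in 2, those of Ctsd and Ctsa, and in 0.785% of all windows. Unlike the windows shown, those with an E-box overlap annotated exons of their own genes in GENCODE vM21. The bases in exons numbered 211 of 250 for Ctsd, 164 for Ctsa, 48 for Ctsl and 35 for Ctsf. The window of Ctsz held none of these letters. These are matches of letters and not measured binding.

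The 3 genes with profiles most like that of Ctss were Lyz2, Cd68 and Gp49a. Likeness was measured over the 6 libraries as the root mean square difference between profiles, each centred on its own mean on the log2(FPKM + 1) scale, among the 11397 tested genes. The nearest was Lyz2, macrophage lysozyme, at a difference of 0.101. It rose, with 96.3, 78.0 and 78.3 FPKM in BKO libraries and 30.9, 20.4 and 20.03 FPKM in Ctrl libraries (limma adjusted p = 0.0195). Next came Cd68, a lysosomal membrane glycoprotein of macrophages, at 0.262, with 9.07, 8.89 and 6.11 FPKM in BKO and 3.47, 2.51 and 1.85 FPKM in Ctrl (limma adjusted p = 0.0828). The last was Gp49a, a leukocyte receptor gene with a near-identical neighbouring copy, at 0.310 (limma adjusted p = 0.0642). Gp49a averaged 0.752 FPKM in Ctrl and was tested only because of its BKO level. All of them had their highest value in BKO-1 and Ctrl-1 as the highest Ctrl library, as did Ctss. They were picked for likeness to Ctss over these same libraries, so this order and their higher BKO levels follow from the choice.

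**Figure D3:**
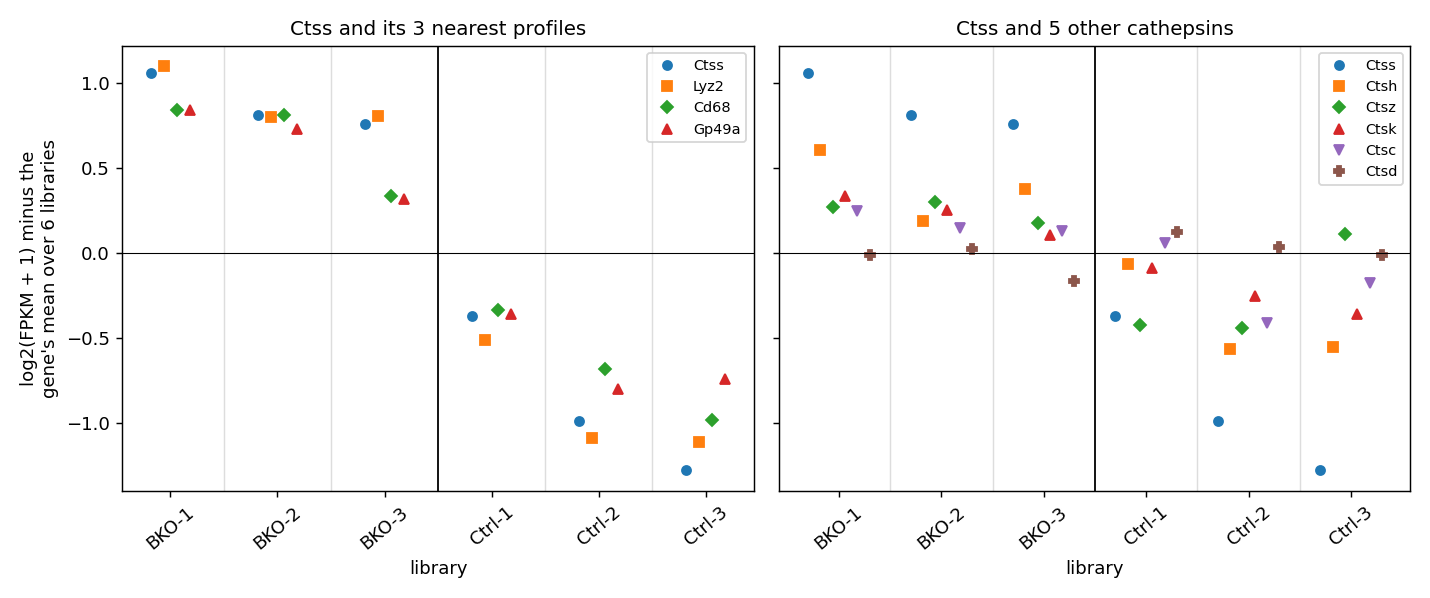
log2(FPKM + 1) minus the gene's own mean over the 6 libraries, with BKO libraries left of the black line and Ctrl libraries right of it. Left, Ctss with Lyz2, Cd68 and Gp49a, at root mean square differences of 0.101, 0.262 and 0.310. Right, Ctss with Ctsh, Ctsz, Ctsk, Ctsc and Ctsd, whose profiles span a smaller range.

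Markers of macrophages had mostly higher levels in BKO, and most of them did not pass the test. Of 26 such markers 23 were listed, none at 0 in any library, while Cx3cr1, Cd5l and Spi1 were not listed. Over all 23, the BKO libraries were wholly above the Ctrl libraries for 17 and wholly below them for 1. Over the 19 tested these counts were 14 and 0, against 9.06% and 6.82% of all genes tested. Itgam, Itgax and Trem2 were wholly above but under the minimum for testing. Genes lower than 0.486 FPKM in BKO-3 may be missing, so markers low in BKO could be absent from these counts. The marker below was Cd163, a scavenger receptor of resident macrophages, which was under the minimum for testing. Of the 19 tested, 4 rose by limma, against 0.158% of all genes tested, and 15 did not pass. The median log2 change of these 19 was 0.90, without the 4 low markers Cd163, Itgam, Itgax and Trem2. Those that rose were Lyz2, Gpnmb, a membrane glycoprotein of lysosomes, at 2.24 ± 0.530 FPKM in BKO and 0.255 ± 0.123 FPKM in Ctrl, Ms4a7, at 2.66 ± 0.402 FPKM in BKO and 0.573 ± 0.277 FPKM in Ctrl, and Tyrobp, a signalling adaptor of myeloid cells, at 13.4 ± 1.38 FPKM in BKO and 5.67 ± 1.20 FPKM in Ctrl. Gpnmb and Ms4a7 had Ctrl means below 1 FPKM and so were tested only because of their BKO levels. Summed over all 23 listed markers, the level was 249 to 288 FPKM in BKO libraries and 94.9 to 138 FPKM in Ctrl libraries. Over the 19 tested markers it was 246 to 285 FPKM in BKO libraries and 93.4 to 136 FPKM in Ctrl libraries. In bulk tissue, more cells of a type and more RNA per cell cannot be told apart. Of 6 B cell markers 0 were listed. Of 8 dendritic cell markers 2 were listed, which summed to 5.50 to 5.95 FPKM in BKO libraries and 5.16 to 6.53 FPKM in Ctrl libraries. Most of this sum was Zbtb46, which averaged 4.95 FPKM in BKO and 5.23 FPKM in Ctrl. The other, Clec9a, named after its values were seen, averaged 0.795 FPKM in BKO and 0.624 FPKM in Ctrl. The sum thus mainly gives the level of 1 gene. The 3 listed markers of T and NK cells summed to 1.07 to 2.71 FPKM in BKO libraries and 1.16 to 3.82 FPKM in Ctrl libraries.

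Set against the sum of the 19 tested macrophage markers, Ctss still stood higher in BKO, whereas the means of the other 9 cathepsins were lower. The mean of that sum was itself 2.29 times higher in BKO. A gene whose level rose by less therefore has a lower ratio, and one that rose by more a higher ratio. These ratios restate the changes given above against that sum. Ctss amounted to 7.28%, 6.60% and 6.78% of the summed marker FPKM in BKO libraries and to 5.22%, 4.55% and 2.83% in Ctrl libraries, without overlap. The log2 difference of this ratio was 0.76 (exact two-sided permutation p = 0.1, the smallest possible with 3 against 3 libraries), 0.98 with Lyz2 left out of the sum, and 0.50 without Ctrl-3. Ctsh amounted to 3.40%, 2.66% and 3.30% in BKO and to 4.20%, 3.998% and 3.24% in Ctrl, and these overlapped (log2 difference -0.29). Ctsc was at 2.21%, 2.21% and 2.32% in BKO and at 3.97%, 3.87% and 3.79% in Ctrl, below Ctrl in every library. The ratios of Ctsk and Ctsz were also lower in BKO, by log2 differences of -0.51 and -0.71, as was that of Ctsd by -1.31, and among the other 9 cathepsins only Ctsh overlapped between the groups. What part macrophage transcripts had in the levels of the cathepsins was not tested.

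Partners of Ctss in antigen presentation did not pass the test. Of 8 genes of MHC class II and its invariant chain 7 were listed and 6 tested, 0 passed over all genes, and 6 of 6 had a positive log2 change (median 0.76). The limma p without adjustment was below 0.05 for 6 of them, against 6.63% of all genes tested on the higher side. For 5 the BKO libraries were all above the Ctrl libraries, against 9.06% of all genes tested. Cd74, the invariant chain that Ctss cuts, had 84.4, 74.8 and 88.9 FPKM in BKO libraries and 63.2, 44.0 and 35.4 FPKM in Ctrl libraries (limma adjusted p = 0.248). H2-Aa, the alpha chain of an MHC class II molecule, had 62.5, 58.0 and 69.9 FPKM in BKO libraries and 50.6, 30.9 and 26.9 FPKM in Ctrl libraries (limma adjusted p = 0.272). As for Ctss, Ctrl-1 was the highest Ctrl library for both.

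Inhibitors of cathepsins did not move as a group. Of 13 inhibitor genes 6 were listed and tested, 0 passed and 0 had an unadjusted p below 0.05 by limma, and 3 were higher and 3 lower (median log2 change 0.01). Cst3, the secreted inhibitor cystatin C, had 635, 786 and 771 FPKM in BKO libraries and 761, 680 and 696 FPKM in Ctrl libraries. Its level exceeded that of every cathepsin in each library. Cstb, the cytosolic inhibitor stefin B, averaged 82.3 ± 12.6 FPKM in BKO and 79.2 ± 7.45 FPKM in Ctrl (SD, n = 3 each).

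Sorting and processing genes showed no common direction either. All 13 were listed and tested, 0 passed by limma, 1 was higher and 1 lower at an unadjusted p below 0.05, and the median log2 change was -0.03. Sort1, sortilin, an alternative receptor for delivery to lysosomes, had 28.8, 28.2 and 34.2 FPKM in BKO libraries and 41.6, 39.8 and 36.1 FPKM in Ctrl libraries, all BKO values being lower (limma adjusted p = 0.287). Scarb2, the receptor that carries glucocerebrosidase, averaged 48.6 ± 2.14 FPKM in BKO and 49.0 ± 8.51 FPKM in Ctrl. The highest difference in this list was that of Lgmn, a protease that cleaves cathepsin precursors, with 19.6, 18.2 and 15.9 FPKM in BKO libraries and 14.9, 12.7 and 14.2 FPKM in Ctrl libraries (limma adjusted p = 0.327). Lgmn was named after its values were seen.

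Lists of lysosomal hydrolases, membrane genes and other peptidases had medians close to that of all genes. Of 27 glycosidases, lipases and sphingolipid hydrolases 0 passed by limma, with 2 higher and 3 lower at an unadjusted p below 0.05 and a median log2 change of -0.0011. Psap, the precursor of the saposins, averaged 520 ± 12.7 FPKM in BKO and 517 ± 30.4 FPKM in Ctrl, and Acp5, an acid phosphatase, 93.4 ± 3.53 FPKM in BKO and 94.7 ± 2.09 FPKM in Ctrl. Of 19 tested genes of the lysosomal membrane and proton pump 0 passed by limma, with 2 higher and 0 lower at an unadjusted p below 0.05 and a median of 0.02. Its highest log2 change, 1.33, was that of Cd68, which is also a macrophage marker. Lamp1, the main membrane glycoprotein of lysosomes, averaged 239 ± 13.7 FPKM in BKO and 220 ± 5.60 FPKM in Ctrl. Atp6v0c, a proton pump subunit, averaged 105 ± 10.3 FPKM in BKO and 103 ± 5.37 FPKM in Ctrl.

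Other lysosomal peptidases had a median of the same size, with 0 of 7 tested passing by limma, 1 higher and 0 lower at an unadjusted p below 0.05, and a median of 0.02. The higher gene was Lgmn, which is in both lists and was also the higher gene among those of sorting and processing. Scpep1, a serine carboxypeptidase, averaged 40.1 ± 2.20 FPKM in BKO and 39.5 ± 0.325 FPKM in Ctrl, and Pepd, a dipeptidase, 30.3 ± 3.15 FPKM in BKO and 34.4 ± 4.92 FPKM in Ctrl. Among 6 tested regulators of lysosomal genes 0 passed and 0 had an unadjusted p below 0.05 by limma (median 0.05). Usf2, an E-box binding factor, averaged 31.8 ± 1.84 FPKM in BKO and 30.9 ± 1.43 FPKM in Ctrl, and Zkscan3, a repressor of autophagy genes, 19.9 ± 3.47 FPKM in BKO and 22.3 ± 2.72 FPKM in Ctrl. The Ctsa partners Neu1, sialidase, at 8.89 ± 0.684 FPKM in BKO and 8.66 ± 0.525 FPKM in Ctrl, and Glb1, beta-galactosidase, did not pass, and neither had an unadjusted p below 0.05 by limma (median log2 change -0.34). Glb1 had 0.881, 0.606 and 4.10 FPKM in BKO libraries and 4.72, 4.79 and 1.06 FPKM in Ctrl libraries, so that BKO-3 and Ctrl-3 each stood apart from their own group.

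Matrix genes that Ctsk, Ctsl and Ctss can degrade were mostly higher in BKO, by amounts that did not pass. Of 9 tested, 8 had a positive log2 change (median 0.26), 0 passed by limma, and 1 was higher at an unadjusted p below 0.05. Dcn, decorin, averaged 84.2 ± 6.30 FPKM in BKO and 69.1 ± 11.3 FPKM in Ctrl, and Sparc, a collagen-binding glycoprotein, 285 ± 14.3 FPKM in BKO and 269 ± 29.5 FPKM in Ctrl. The summed level of 10 preadipocyte and fibroblast markers was 225 to 247 FPKM in BKO libraries and 189 to 220 FPKM in Ctrl libraries. Dcn and Col1a1 belong to both lists, so this sum partly restates the matrix values. What part cells of this type had in the matrix values was not tested. Of 8 osteoclast-type genes, chosen as company for Ctsk, 3 were listed and 2 tested, 0 passed and 0 had an unadjusted p below 0.05 by limma (median -0.03), among them Nfatc1 at 4.25 ± 0.0596 FPKM in BKO and 4.41 ± 0.299 FPKM in Ctrl. The listed gene under the minimum for testing was Atp6v0d2, a proton pump subunit, which differed the other way. It had 1.37, 1.01 and 0.639 FPKM in BKO libraries and 0.0331, 0.0193 and 0.0198 FPKM in Ctrl libraries. Since genes lower than 0.486 FPKM in BKO-3 may be missing, Atp6v0d2 may be listed only because of its BKO level. Of the endosomal Toll-like receptor genes, whose products cathepsins cleave, 2 were tested and 0 passed by limma, with 1 higher at an unadjusted p below 0.05. Unc93b1, which carries these receptors to endosomes, averaged 12.4 ± 1.02 FPKM in BKO and 9.30 ± 2.05 FPKM in Ctrl, and Tlr3 averaged 2.42 ± 0.217 FPKM in BKO and 2.08 ± 0.169 FPKM in Ctrl.

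**Figure D4:**
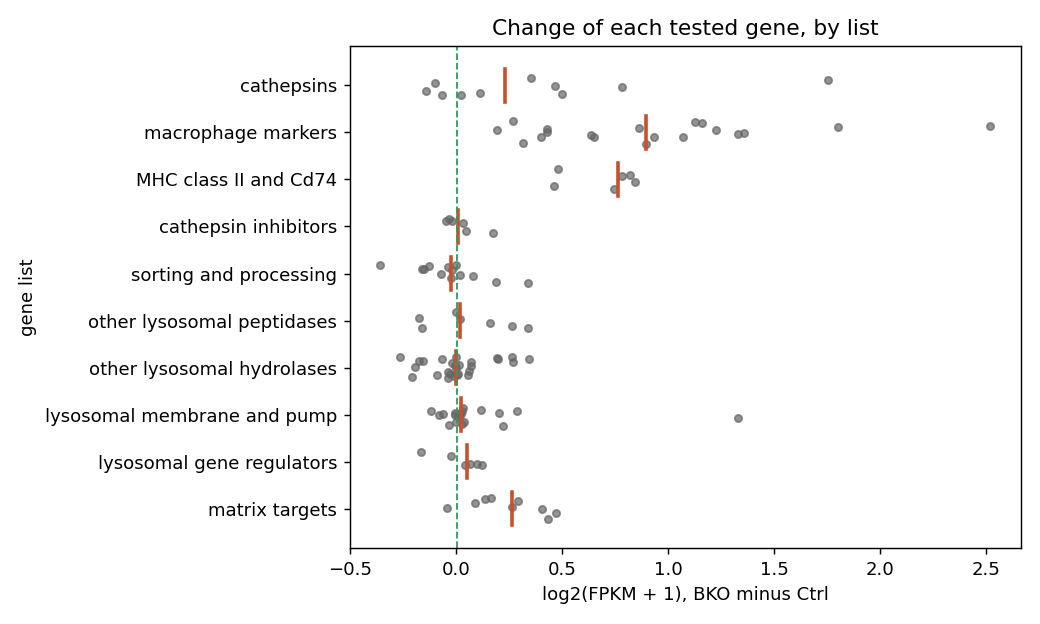
Change of each tested gene, BKO minus Ctrl, on the log2(FPKM + 1) scale, with 1 row per list, points for genes, red bars for list medians and a dashed green line for the median of all genes. The macrophage markers (median 0.90) and MHC class II genes (median 0.76) lie to the right of the cathepsins (median 0.23), and the medians of the inhibitors, sorting and processing genes, other peptidases and hydrolases, membrane and pump genes and regulators lie between -0.03 and 0.05.

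Few of the further cathepsin genes of the mouse were listed, in a table where low values may be missing. Of 15 such genes, with the cathepsin-like Tinag and Tinagl1 counted in, 3 were listed and 2 tested, and 0 passed or had an unadjusted p below 0.05 by limma (median 0.05). Ctso, a widely expressed cysteine cathepsin, had 7.92, 7.23 and 6.35 FPKM in BKO libraries and 7.29, 6.19 and 6.17 FPKM in Ctrl libraries, which overlapped. Tinagl1, a matrix protein with an inactive cathepsin-like domain, averaged 40.3 ± 8.78 FPKM in BKO and 39.9 ± 2.49 FPKM in Ctrl. Ctsw, a cathepsin of cytotoxic lymphocytes, averaged 0.472 ± 0.122 FPKM in BKO and 0.370 ± 0.199 FPKM in Ctrl, below the minimum for testing. Of the granule serine proteases that Ctsc activates, Gzma and Prtn3 were listed and none reached the minimum.

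Some members share exon sequence with other genes in GENCODE vM21, and whether reads were counted by strand is not given in the sources used here. Fdft1, on the opposite strand, covers 12.8% of the exon bases of Ctsb, and averaged 44.9 ± 5.40 FPKM in BKO and 49.1 ± 5.53 FPKM in Ctrl. Pltp covers 10.498% and Neurl2 6.87% of those of Ctsa. A protein-coding model on the same strand covers 34.4% of those of Ctsd, and an antisense gene 26.8% and a processed pseudogene 6.09% of those of Ctsl. Nelfcd, listed under its older symbol Th1l, covers 0.694% of those of Ctsz. No such overlap was annotated for Ctss, Ctsh, Ctsk, Ctsc and Ctsf.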

How the data were processed

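Trizol extracts of brown fat from 3 BKO and 3 Ctrl samples went into TruSeq RNA libraries, per the labels' protocols. The submitters' processing notes name CASAVA 1.8, TopHat2 2.0.12, Cufflinks 2.2.1 and the build NCBIM37, while for options, annotation and strand setting the sources used here give nothing. The authors deposited FPKM per gene, scaled for transcript length and library size, a unit read from the values and from the Cufflinks named, since the file's header gives none. Their depth is unknown, since the lowest values show no steps of whole reads. Columns were matched to samples by the names in the labels' descriptions, where MT is Ctrl and WT is BKO. Bscl2 was low in the BKO columns.

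The lowest value of BKO-3 above 0 is 0.486 FPKM, which is not so in the other libraries, so genes lower than that in BKO-3 may be missing from the table. log2(FPKM + 1) was fitted with limma 3.58.1 (R 4.3.3; intensity trend, no covariate, Benjamini-Hochberg over the 11397 genes averaging 1 FPKM or more, threshold 0.05). Differences on this scale understate the change of low genes, and ratios are of mean FPKM. Single values per library were compared with exact two-sided permutation tests. Steps were tested on simulated data.

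The members, gene lists and tests were chosen with earlier results of these data known. Named were all members, Bscl2, the 3 nearest profiles of a member that passed, and of each list up to 4 genes that passed, or else the 2 most abundant. Any other gene is named as chosen after its values were seen. Overlapping genes and absent markers are named for completeness. Promoter sequences are from RefSeq (GRCm38.p6) and exons from GENCODE vM21, not the authors' build. Motifs were chosen after the values were known. Alternatives were other pseudocounts (0.1 and 0.5), filters, scalings, empirical Bayes settings, library weights, a muscle score as covariate, a replicate block, a threshold of 0.1 and leaving out each library.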

Additional observations from a re-analysis of the deposited data

How the results depend on the processing

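The direction of Ctss was kept in 16 of 16 alternatives (log2 change 1.56 to 2.01), but its call (limma adjusted p below 0.05) in 6. The call was lost with a pseudocount of 0.1 (change 1.95, adjusted p = 0.0582) or 0.5 (1.86, 0.0536), with no filter (1.76, 0.0508) or a minimum mean of 5 FPKM (1.76, 0.0517), and with the muscle score as covariate (1.74, 0.0580), so 0 cathepsins were called in each of these, and the cause was not tested. With 1 library left out the change was 1.56 to 2.01 and the members called 0 to 1. It passed with median ratio rescaling (adjusted p = 0.0387), quantile normalization (0.0494), robust empirical Bayes (0.0401) and library weights (0.0164). Genes called higher numbered 18, against 33 at a threshold of 0.1, 11 with no filter, 9 at a minimum of 5 FPKM, 32 with robust empirical Bayes, 48 with library weights and 8 with the muscle score, and 5 to 30 with 1 library left out. Genes called lower numbered 1, against 6 with library weights and 1 to 3 with 1 library left out. No other member was called in any alternative. The sign of Ctsa turned without BKO-2 (-0.0013) and Ctrl-2 (-0.0056), that of Ctsf without BKO-1 (0.023), and the difference of summed cathepsin FPKM without BKO-2 (-1.48). With 1 library left out these ranged from -0.0056 to 0.055 for Ctsa, from -0.13 to 0.023 for Ctsf and from -1.48 to 47.1 FPKM for the sum. Leaving Ctss out of that sum gave a difference of 6.70 FPKM. The 9 ratios of Ctss to other members kept their direction without any 1 library.

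Libraries with the same number did not deviate together, with correlations of 0.196, -0.104 and -0.100 for numbers 1, 2 and 3, so the numbers were not taken as pairs. With the replicate block the change of Ctss was 1.76 (limma adjusted p = 0.0177) and 23 genes were called higher and 2 lower.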

Other observations

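Several genes of macrophages and lysosomes lay below the minimum mean of 1 FPKM and were seen only in the fit without a filter. They were picked here after their values were seen. Genes lower than 0.486 FPKM in BKO-3 may be missing. Atp6v0d2 and Trem2 were under that value in every Ctrl library, so they may be listed only because of their BKO levels. Their ratios and adjusted p-values therefore describe them and test nothing. For Atp6v0d2, a proton pump subunit of osteoclasts and macrophages, the ratio of the BKO to the Ctrl mean was 41.8 and the log2 change in that fit 0.95 (limma adjusted p = 0.0856), while the 19 tested genes of the lysosomal membrane and pump had a median of 0.02. Trem2, a lipid-sensing receptor of macrophages, had 1.63, 1.78 and 1.32 FPKM in BKO libraries and 0.378, 0.117 and 0.0378 FPKM in Ctrl libraries (limma adjusted p = 0.0508). Cd163, a scavenger receptor of resident macrophages, ran the other way, with 0.329, 0.507 and 0.568 FPKM in BKO libraries and 1.23, 0.780 and 1.10 FPKM in Ctrl libraries (limma adjusted p = 0.261). Its BKO libraries were all below its Ctrl libraries, whereas the 19 tested macrophage markers all had a positive change.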
